A study of Mus musculus with 22 samples.

Results

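The genes described here encode 10 cytokine receptor chains of early blood progenitors: Flt3, Csf3r, Csf1r, Csf2ra, Csf2rb, Csf2rb2, Il3ra, Il6ra, Il6st and Il7r. They are 10 of the 22180 genes with a usable probe. They were chosen by name, and because Flt3 and Csf3r had stood out in earlier results of these same arrays at 10 h. The values behind that choice are the differences between inhibitor and solvent, so these differences are described below and not tested. Each of the 10 genes had a single array probe assigned to it alone. Levels are log2 expression values, so a difference of 1 is a doubling.

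Cytokine receptors sit on the cell surface and pass on signals for survival, division and lineage choice. Flt3 and Csf1r are receptor tyrosine kinases, while the others have no kinase of their own and signal through JAK kinases and STAT transcription factors. Several work as complexes, in which a chain that binds the ligand pairs with a shared signalling chain, such as the common beta chain for IL-3 and GM-CSF or gp130 for IL-6. Notch receptors signal by another route: gamma-secretase cuts them, and the freed intracellular part joins the DNA-binding protein RBPJ to switch on targets such as the Hes repressors.

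All cells came from wild-type C57Bl/6J mouse embryos at day E14.5. Fetal liver cells were kept with OP9-DL1 cells, which are bone marrow stroma made to present the Notch ligand Dll1, and with a gamma-secretase inhibitor (GSI, 1 µM) or with DMSO, its solvent. SLAM LSK cells, a sorted population enriched for haematopoietic stem cells, were collected after culture and their RNA was hybridised to 1 array per sample. The groups were DMSO and GSI at 4 h (n = 7 each) and DMSO and GSI at 10 h (n = 4 each), and the design text pairs each GSI sample with a DMSO sample. All 4 groups were grown on ligand-bearing stroma, and no group was grown without it. The whole liver was cultured before the sort, and how many embryos went into a culture is not given in the sources used here.

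The sorted phenotype was checked on genes of its gate. Kit averaged 9.97 in DMSO at 4 h, Cd34 averaged 10.8 and Procr 9.18, all above the median gene on every array. Slamf1, which encodes the SLAM marker CD150, was low: it averaged 3.98 in DMSO at 4 h and 4.74 at 10 h, and lay below its array's median gene on 16 of 22 arrays. Cd48 and Cd244a, whose products are absent from the surface of the most primitive cells, lay below the median gene on 10 and 22 arrays. At 10 h Cd48 ran from 5.79 to 7.37 in DMSO and from 6.30 to 7.09 with GSI, above the median gene (4.67 to 4.81) on every array. The median value over all probes was 5.03 to 5.12 on the 4 h arrays and 4.45 to 4.52 on the 10 h arrays, so a level at 10 h cannot be set against a level at 4 h without rescaling. Arrays of a group correlated closely, with pair 6 standing furthest from the others at 4 h.

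The promoters of Flt3 and Csf3r are shown because these were the receptors with the largest differences at 10 h. Each sequence is the 250 bases before the RefSeq transcription start in build GRCm38.p6, read on the gene's own strand. Capitals mark matches to the motifs searched.

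Flt3, chr5:147400490-147400739, minus strand: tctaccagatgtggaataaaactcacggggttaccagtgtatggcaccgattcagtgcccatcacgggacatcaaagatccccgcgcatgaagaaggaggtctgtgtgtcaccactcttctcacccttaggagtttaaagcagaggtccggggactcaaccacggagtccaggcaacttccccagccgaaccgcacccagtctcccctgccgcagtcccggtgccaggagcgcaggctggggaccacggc

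Csf3r, chr4:126024409-126024658, plus strand: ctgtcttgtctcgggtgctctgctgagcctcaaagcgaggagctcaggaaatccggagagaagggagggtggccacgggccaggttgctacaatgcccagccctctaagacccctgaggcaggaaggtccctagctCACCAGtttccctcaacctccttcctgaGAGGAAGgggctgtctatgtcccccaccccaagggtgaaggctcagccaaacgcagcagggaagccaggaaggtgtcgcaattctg

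Both strands of each window were searched for 6 motifs. They were GTGGGAA for RBPJ, CACNAG for the N-box of Hes repressors, CACGTG for the E-box, GAGGAAG for ETS factors such as PU.1, TGTGGT for RUNX factors and TTGCNNAA for C/EBP factors. The Flt3 window held none of these strings. The Csf3r window held 1 match to CACNAG, 114 bases before the start, and 1 match to GAGGAAG, 86 bases before it. Among 32851 mouse promoter windows of the same length, 36.7% held CACNAG and 10.6% held GAGGAAG, so neither is a rare string. The other 4 were found in 5.42% (GTGGGAA), 6.02% (CACGTG), 14.0% (TGTGGT) and 9.56% (TTGCNNAA) of windows. Promoter sequences were matched for 8 of the 10 genes, all but Csf1r and Csf2rb.

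Flt3 was the receptor with the largest difference between inhibitor and solvent. It encodes the receptor tyrosine kinase for FLT3 ligand, which marks multipotent progenitors that have begun to leave the stem cell state and supports lymphoid and dendritic development. At 10 h its level in DMSO was 4.62, 4.93, 4.96 and 5.08 in pairs 1 to 4. With GSI it was 6.58, 6.13, 5.87 and 6.13 in the same pairs. Every GSI culture lay above every DMSO culture, so the groups did not overlap. The pair differences were 1.96, 1.20, 0.91 and 1.05, a mean of 1.28 ± 0.170 (SE, n = 4 pairs) or 2.42-fold. Each SE given for GSI against DMSO is that of the limma fit, which pools the spread of pairs at both times. It is not the SE of these 4 differences alone, whose SD was 0.468. Leaving out each pair in turn moved the mean between 1.05 and 1.40. Over 12 other settings of the fit or the scaling it ran from 0.98 to 1.58. The call by which Flt3 was chosen was lost without the pair block, with the 10 h arrays alone and within either code set. The other settings reuse the values behind the choice, so they give no further support.

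At 4 h the Flt3 groups overlapped widely. In DMSO the level ran from 3.79 to 6.92 with a median of 5.64, and with GSI from 4.14 to 7.38 with a median of 6.27. Pair 6 held the lowest Flt3 in both groups and pair 2 the highest. GSI was above DMSO in 6 of 7 pairs. The differences ran from -0.08 in pair 3 to 0.88 in pair 1, with a mean of 0.40 ± 0.128 (SE, n = 7 pairs). On 3 of the 22 arrays Flt3 lay below the array's median gene.

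Csf3r had the next largest difference at 10 h. It encodes the receptor for G-CSF, which drives the formation of neutrophils and the release of stem cells from bone marrow. Its level at 10 h was 5.57, 6.61, 7.57 and 6.82 in DMSO and 7.00, 7.43, 8.14 and 7.54 with GSI. The ranges overlapped, with pair 1 low and pair 3 high in both groups, but each GSI culture exceeded its own partner. The pair differences were 1.43, 0.82, 0.57 and 0.72, with an SD of 0.377. Their mean was 0.88 ± 0.132 (SE, n = 4 pairs) or 1.85-fold. That mean ran from 0.70 to 0.99 when each pair was left out, and from 0.65 to 1.12 over 12 other settings. The call by which Csf3r was chosen was lost in the same settings as that of Flt3.

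At 4 h Csf3r showed no such shift. The level ran from 5.35 to 8.80 in DMSO (median 7.70) and from 5.14 to 8.67 with GSI (median 7.51). The mean difference was 0.01 ± 0.100 (SE, n = 7 pairs), with GSI higher in 4 of 7 pairs. Pair 6 held the lowest value in both groups, well apart from the other cultures.

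Csf1r was the receptor that was lower with GSI in every 10 h pair. It encodes the receptor tyrosine kinase for M-CSF and IL-34 and is the defining receptor of monocytes and macrophages. Its level at 10 h was 6.39, 7.15, 6.35 and 5.86 in DMSO and 6.12, 6.31, 5.65 and 5.56 with GSI. The groups overlapped, and pair 4 was lowest in both. The differences were -0.28, -0.83, -0.70 and -0.31, a mean of -0.53 ± 0.148 (SE, n = 4 pairs). At 4 h the mean was 0.04 ± 0.112 (SE, n = 7 pairs), with values from -0.38 in pair 7 to 0.65 in pair 1.

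Markers of mature macrophages and granulocytes were examined beside these receptors, since both cell types carry Csf1r or Csf3r. The mean of 10 macrophage markers differed by -0.046, -0.238, 0.045 and -0.042 in the 10 h pairs. The mean of 13 neutrophil and monocyte markers differed by 0.018, -0.456, -0.057 and -0.246, with its largest values below 0 in pairs 2 and 4. None of these markers passed the test at 10 h, where 4 macrophage and 2 neutrophil and monocyte markers had an unadjusted p under 0.05, as 14.1% of all genes did. Of the 10 macrophage markers 7 had lower values with GSI, the direction of Csf1r, among them Marco (-0.53, adjusted p = 0.148), C1qc (-0.40), C1qb (-0.37) and Vsig4 (-0.20), the last 2 in every pair. The other 3 had higher values. Cd68 was higher in every pair (0.47, adjusted p = 0.124 in limma). Adgre1 (0.46, adjusted p = 0.398) and Cd163 (0.08) were higher in 3 of 4 pairs. Vsig4 and Cd163 had low signal, with group means at 10 h below the median gene. The part of these cells in the receptor differences at 10 h was not tested. On a scale of summed signal the macrophage list ran from 8.78 to 9.74 in DMSO and from 8.81 to 9.74 with GSI, and the neutrophil and monocyte list from 12.4 to 13.2 and from 11.9 to 13.2. Of the macrophage markers 2 lay below the array's median gene on all 22 arrays, and of the neutrophil and monocyte markers 1. At 4 h, pair 1, which had the highest Csf1r difference, also had the highest macrophage (0.587) and neutrophil and monocyte (1.34) differences. Its stromal (0.917) and hepatocyte (0.457) marker differences were the highest at 4 h as well. The part of any of these cells in the result was not tested. In sorted bulk samples, a change in the share of a cell type and a change in RNA per cell cannot be told apart.

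**Figure D1:**
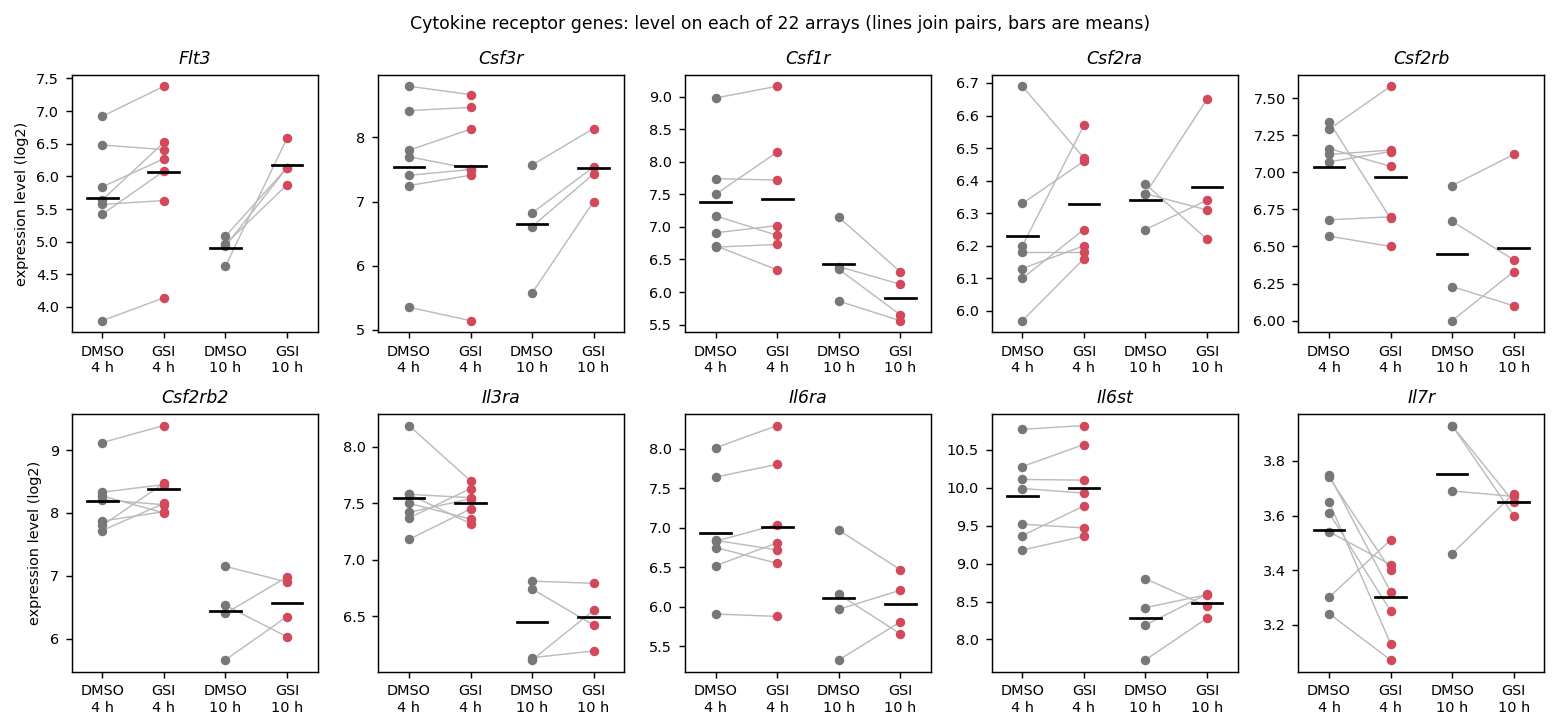
Level (log2) of each of the 10 receptor genes on the 22 arrays, with lines joining the DMSO and GSI sample of a pair and black bars at group means. At 10 h the Flt3 points with GSI (5.87 to 6.58) lie above all those with DMSO (4.62 to 5.08), the Csf3r lines all rise and the Csf1r lines all fall; the panels have separate axes, and levels at 4 h and 10 h are on different scales.

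The GM-CSF and IL-3 receptor chains had mean differences near 0 at 10 h, though single pairs differed by more. Csf2ra encodes the chain that binds GM-CSF. Its level at 10 h was 6.36, 6.36, 6.39 and 6.25 in DMSO and 6.65, 6.31, 6.22 and 6.34 with GSI, a mean difference of 0.04 ± 0.113 (SE, n = 4 pairs). At 4 h it ran from 5.97 to 6.69 in DMSO (median 6.18) and from 6.16 to 6.57 with GSI (median 6.25), and the mean difference was 0.10 ± 0.086. GSI was higher in 2 of 4 pairs at 10 h and in 5 of 7 at 4 h.

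Il3ra, which encodes the chain that binds IL-3, had a level at 10 h of 6.13, 6.11, 6.74 and 6.81 in DMSO and of 6.19, 6.55, 6.42 and 6.79 with GSI. Its mean difference was 0.04 ± 0.138 (SE, n = 4 pairs), and GSI was higher in 2 of 4 pairs. At 4 h the DMSO level ran from 7.18 to 8.19 (median 7.50) and the GSI level from 7.32 to 7.70 (median 7.54). The mean difference there was -0.04 ± 0.105, and the largest single value, -0.49, was that of pair 1, whose DMSO culture held the highest Il3ra level.

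Csf2rb encodes the common beta chain that signals for GM-CSF, IL-3 and IL-5, and Csf2rb2 a mouse beta chain specific for IL-3. These are near-identical neighbours on chromosome 15, so their probes may share signal and each value is uncertain to that extent. Csf2rb at 10 h was 6.00, 6.23, 6.91 and 6.67 in DMSO and 6.33, 6.10, 7.12 and 6.41 with GSI, a mean difference of 0.04 ± 0.139 (SE, n = 4 pairs). Csf2rb2 at 10 h was 5.66, 6.53, 7.15 and 6.40 in DMSO and 6.35, 6.03, 6.90 and 6.98 with GSI, a mean difference of 0.13 ± 0.181. For Csf2rb2 pairs 1 and 4 were higher with GSI by 0.69 and 0.58, and pairs 2 and 3 lower by 0.50 and 0.25 on the log2 scale. At 4 h the mean difference was -0.06 ± 0.105 for Csf2rb and 0.18 ± 0.137 for Csf2rb2, and 0.55 for Csf2rb2 in pairs 2 and 3 alone. The Csf2rb levels ran from 6.57 to 7.34 in DMSO and from 6.50 to 7.58 with GSI at 4 h, and the Csf2rb2 levels from 7.72 to 9.12 and from 8.00 to 9.39.

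The IL-6 receptor pair also gave no common direction. Il6ra encodes the chain that binds IL-6, and Il6st encodes gp130, the signalling chain shared by IL-6, LIF, IL-11 and oncostatin M. Il6ra at 10 h was 5.33, 6.16, 5.97 and 6.97 in DMSO and 5.81, 5.66, 6.21 and 6.47 with GSI, a mean difference of -0.07 ± 0.154 (SE, n = 4 pairs), up in pairs 1 and 3 and down in the other two. Il6st at 10 h was 8.42, 8.80, 8.19 and 7.73 in DMSO and 8.59, 8.44, 8.60 and 8.28 with GSI, a mean difference of 0.19 ± 0.119 with GSI higher in 3 of 4 pairs. At 4 h the mean difference was 0.08 ± 0.116 for Il6ra and 0.11 ± 0.090 for Il6st. Il6ra then ran from 5.91 to 8.01 in DMSO and from 5.88 to 8.29 with GSI, and Il6st from 9.18 to 10.77 and from 9.36 to 10.82.

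Il7r encodes the IL-7 receptor alpha chain, which lymphoid progenitors need and stem cells lack. Its level lay below the array's median gene on 22 of 22 arrays, so a change in a low signal could be missed. It was 3.69, 3.93, 3.46 and 3.93 in DMSO at 10 h and 3.67, 3.60, 3.68 and 3.65 with GSI, a mean difference of -0.10 ± 0.117 (SE, n = 4 pairs). At 4 h Il7r ran from 3.24 to 3.75 in DMSO (median 3.61) and from 3.07 to 3.51 with GSI (median 3.32). GSI was below DMSO in 6 of 7 pairs, with a mean of -0.25 ± 0.089 (SE, n = 7 pairs). In pairs 2 and 3 alone, which share a code in the sample descriptions, the mean was 0.05.

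**Figure D2:**
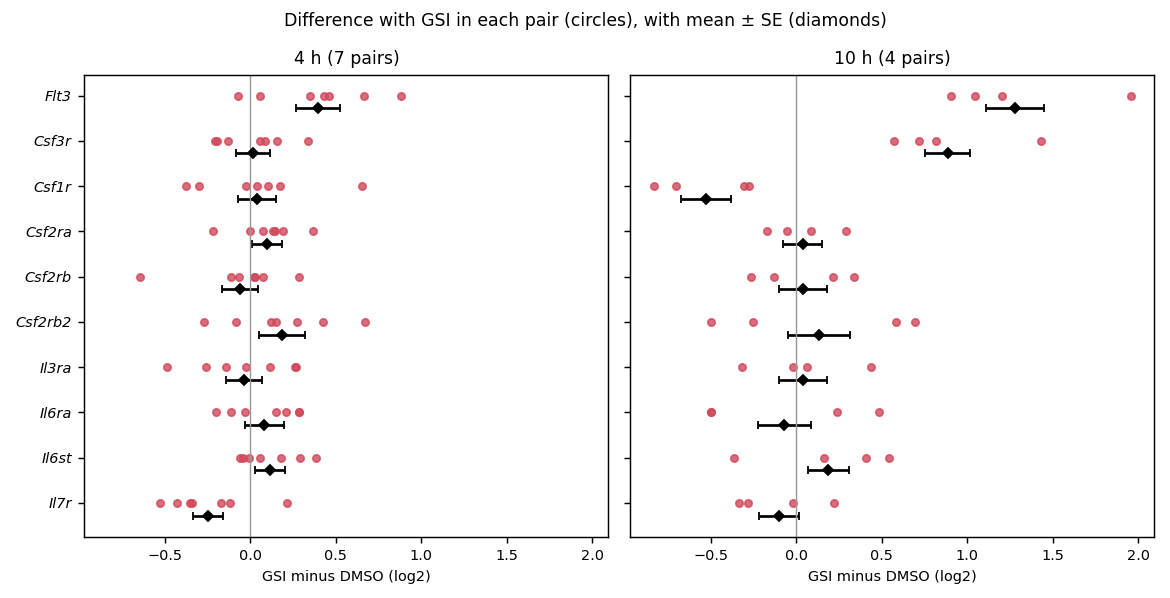
Difference in log2 level, GSI minus DMSO, of each receptor in each pair (circles) with the mean and its standard error (diamonds), at 4 h on the left and 10 h on the right. The standard errors are those of the limma fit, which pools the spread of pairs at both times. At 10 h all 4 circles lie above 0 for Flt3 and Csf3r and below 0 for Csf1r, while the other 7 receptors have circles on both sides.

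Over the 10 receptors the median difference was 0.06 at 4 h and 0.04 at 10 h, against 0.01 and -0.01 over all 22180 genes. At 10 h GSI was above DMSO in every pair for 2 of the 10 (8.47% of all genes) and below in every pair for 1 (8.2% of all genes). The groups did not overlap for 1 of the 10, Flt3, where 1.41% of all genes lay wholly above DMSO with GSI and 1.31% wholly below. At an adjusted p under 0.05 in limma, 0.667% of all genes passed at 10 h and 0.00451% at 4 h. Flt3 and Csf3r are among the 148 genes at 10 h, which is how they came to be chosen. No receptor of the 10 was higher or lower in every pair at 4 h, where 1.01% of all genes were higher and 0.807% lower in every pair. None of the 10 had groups that did not overlap at 4 h, as 0.0271% of all genes did upward and 0.0135% downward.

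The genes whose pair differences most resembled those of Flt3 over the 11 pairs were Uap1 (Pearson r = 0.94), Rap2c (0.93), A430078G23Rik (0.93), Cd63 (0.92) and Rcsd1 (0.91). For Csf3r they were Uggt1 (0.95), AU020206 (0.95), Atad1 (0.94), Ccdc47 (0.94) and Rab2b (0.94). These values describe a shared profile that in part is the step from 4 h to 10 h, and some pairs share a code set. Csf3r came in place 51 for Flt3 (r = 0.83), and Flt3 in place 141 for Csf3r. Both genes were chosen for their differences at 10 h, so their likeness is in part given by that choice. The correlation of Csf1r with them was -0.31 for Flt3 and -0.58 for Csf3r.

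The comparison was then widened to the genes that surround these receptors. Of 27 other cytokine receptor genes measured, none passed at 10 h, and 4 had an unadjusted p under 0.05 in limma, a share close to the 14.1% of all genes. Their median difference was 0.01. The smallest p-values belonged to the interferon receptor chains Ifngr1 (-0.30 ± 0.090, adjusted p = 0.135), Ifnar1 (0.47 ± 0.144, adjusted p = 0.146) and Ifngr2 (0.45 ± 0.141, adjusted p = 0.150). Kit, the receptor for stem cell factor and like Flt3 a class III receptor tyrosine kinase, differed by 0.16 ± 0.090 (adjusted p = 0.455), with a level of 9.14 in DMSO and 9.30 with GSI at 10 h.

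Ligand genes gave no call either. Of 17 measured, 0 passed at 10 h and 2 had an unadjusted p under 0.05 (14.1% of all genes), with a median of -0.09. Csf1, the main ligand of Csf1r, had the smallest p (-0.46 ± 0.175, adjusted p = 0.247), followed by Il27 (0.30, adjusted p = 0.248) and Il11 (-0.20, adjusted p = 0.443). Csf3, the ligand of Csf3r, differed by -0.02. Flt3l, which encodes the ligand of Flt3, was not measured by a probe of its own.

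Of 21 genes of JAK, STAT, phosphatase and adaptor signalling, 0 passed at 10 h and 4 had an unadjusted p under 0.05 (14.1% of all genes), with a median of 0.09. Sh2b3, which encodes the adaptor LNK that restrains cytokine signals in stem cells, was higher with GSI in 4 of 4 pairs without passing (0.46 ± 0.139, adjusted p = 0.141). Stat4 (0.58, adjusted p = 0.214) and Pik3r1 (0.26, adjusted p = 0.215) came next. Jak2, the kinase used by the beta chains, differed by -0.01, and Stat3 and Stat5a, which act below Csf3r, by 0.10 and 0.11.

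Among 11 feedback genes that cytokine signals switch on, 1 rose, where 0.555% of all genes rose. The list was drawn up with earlier results of these data known, so that share does not test it. Cish, an inhibitor induced by STAT5, had levels of 6.45, 6.41, 7.07 and 7.75 in DMSO at 10 h and of 6.90, 7.06, 8.12 and 8.45 with GSI. It was higher in 4 of 4 pairs, by 0.71 ± 0.119 (SE, adjusted p = 0.0189 in limma), although the groups overlapped. A second Cish probe of lower signal differed by 0.15. Without pair 4 the value was 0.71 and the call was lost (adjusted p = 0.0614). Socs2, another STAT5 target, had a value of 1.83 ± 0.518 that did not pass (adjusted p = 0.117) and 0.21 at its other probe. Pim1 had 0.35 (adjusted p = 0.419) and -0.13 at its other probe.

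Of 20 transcription factor genes known to act on these receptor genes or in the same progenitors, 3 rose at 10 h, where 0.555% of all genes rose. This list too was drawn up with earlier results known, so the share is a description and not a test. Hoxa9, a homeobox factor of stem and progenitor cells and a known regulator of Flt3, was 5.53, 6.28, 6.71 and 6.34 in DMSO and 7.26, 7.52, 7.17 and 6.98 with GSI, without overlap. Its difference was 1.02 ± 0.179 (SE, adjusted p = 0.0223), and 0.78 without pair 1, where the call was lost (adjusted p = 0.0918). Fli1 (0.56 ± 0.112, adjusted p = 0.0369) and Erg (0.58 ± 0.125, adjusted p = 0.0495), both ETS factors of stem cells, rose in 4 of 4 pairs. Without pair 1 these were 0.42 (adjusted p = 0.143) and 0.37 (adjusted p = 0.157), and neither passed without pair 3 or pair 4 (adjusted p from 0.0720 to 0.101). After quantile normalization none of Cish, Hoxa9, Fli1 and Erg passed (adjusted p from 0.0625 to 0.121), nor did any of them with the 10 h arrays alone, within a code set or without the pair block, and Fli1 and Erg also missed with no intensity trend and after cyclic loess.

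Other factor genes of this list were examined for their RNA level alone. At 10 h Spi1, which encodes PU.1, differed by 0.01 ± 0.099 and Cebpa by 0.05 ± 0.151, though the Cebpa level was low at 4.11 in DMSO. Runx1 was higher with GSI in 4 of 4 pairs by 0.21 ± 0.129 (adjusted p = 0.487), and Meis1, a partner of Hoxa9, in 4 of 4 by 0.65 ± 0.192 (adjusted p = 0.127). The part of any of these factors in the receptor differences was not tested.

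At 4 h no gene of any of these 5 lists passed. An unadjusted p under 0.05 was seen for 1 of the 27 other receptors, 1 of the 17 ligands, 0 of the 21 signalling genes, 2 of the 11 feedback genes and 2 of the 20 transcription factor genes, against 4.21% of all genes. At 4 h Hoxa9 differed by 0.34 and Cish by -0.06.

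**Figure D3:**
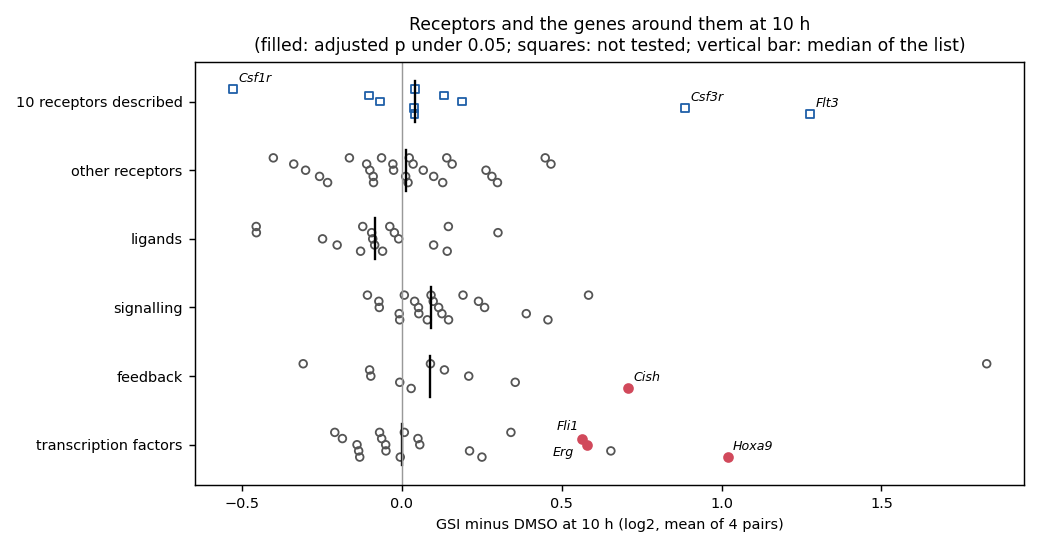
Difference at 10 h (log2, GSI minus DMSO, mean of 4 pairs) of the 10 receptors, drawn as squares, and of the genes of 5 related lists, drawn as circles, filled where the adjusted p was under 0.05. Cish, Hoxa9, Fli1 and Erg are the filled circles, and no other receptor, ligand or signalling gene is filled.

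Levels at 10 h were then compared with those at 4 h within DMSO and within GSI. The receptors were not chosen by this contrast. It does share the 10 h arrays with the differences for which Flt3 and Csf3r were chosen, so it is not independent of that choice for them. The values were first quantile normalized over all 22 arrays, because the deposited scales differ between times. No code set of the sample descriptions held both times, so time in culture and what those codes mark cannot be told apart. This contrast is wide: 34.1% of all genes passed in DMSO and 37% in GSI. Of the 10 receptors 4 passed in DMSO and 5 in GSI, shares not far from those of all genes. In each arm 2 rose, where 18.8% of all genes rose in DMSO and 20.9% in GSI. In DMSO 2 fell and in GSI 3, where 15.3% and 16.1% of all genes fell. The receptors' median difference was -0.19 in DMSO and -0.07 in GSI, against 0.04 over all genes in each. The 10 h and 4 h values did not overlap for 3 of the 10 in DMSO (21% of all genes) and for 4 in GSI (24.1% of all genes).

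Il6st and Csf2rb2 were lower at 10 h in both arms. Il6st on the normalized scale was 8.78, 9.09, 8.45 and 8.24 in the 10 h DMSO cultures, against 9.08 to 10.57 (median 9.89) at 4 h. It fell by 1.12 ± 0.265 (SE, 4 against 7 arrays, adjusted p = 0.00704 in limma). In GSI it was 8.89, 8.73, 8.80 and 8.56 against 9.22 to 10.63 (median 9.84), and it fell by 1.12 ± 0.242 (adjusted p = 0.00366). The groups overlapped in DMSO only in that 9.09 at 10 h exceeded 9.08 at 4 h, and did not overlap in GSI.

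Csf2rb2 was 6.17, 6.91, 7.49 and 6.97 in DMSO at 10 h against 7.51 to 8.83 (median 8.01) at 4 h, and fell by 1.09 ± 0.271 (SE, adjusted p = 0.00897). In GSI it was 6.79, 6.43, 7.21 and 7.37 against 7.80 to 9.10 (median 7.93), and fell by 1.21 ± 0.249 (adjusted p = 0.00286). No 10 h array reached a 4 h array in either arm. Its neighbour Csf2rb did not pass in either arm, with 0.12 ± 0.202 in DMSO and 0.17 ± 0.213 in GSI, so the near-identical genes gave different values here. On the values as deposited Csf2rb was lower at 10 h (-0.58 in DMSO, adjusted p = 0.0250, and -0.48 in GSI), so its direction rests on the scaling.

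Csf2ra and Il7r were higher at 10 h in both arms on the normalized scale. Csf2ra was 6.88, 6.76, 6.80 and 6.83 in DMSO at 10 h against 5.81 to 6.51 (median 5.89) at 4 h, a rise of 0.84 ± 0.145 (SE, adjusted p = 0.00125). In GSI it was 7.07, 6.68, 6.61 and 6.79 against 5.87 to 6.24 (median 6.02), a rise of 0.74 ± 0.122 (adjusted p = 0.000809). The groups did not overlap in either arm. On the values as deposited the differences were 0.11 (adjusted p = 0.505) and 0.05 (adjusted p = 0.728). The same change of scale moved the median of all genes from 0.04 to -0.41 in DMSO and from 0.04 to -0.42 in GSI.

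Il7r was 3.88, 4.28, 3.75 and 4.07 in DMSO at 10 h against 3.16 to 3.63 (median 3.47) at 4 h, a rise of 0.55 ± 0.117 (SE, adjusted p = 0.00389). In GSI it was 3.93, 3.90, 4.04 and 3.91 against 2.99 to 3.45 (median 3.21), a rise of 0.74 ± 0.086 (adjusted p = 0.000110). These are rises within a signal that stayed under the median gene on every array. As deposited the values were 0.20 (adjusted p = 0.170) in DMSO and 0.35 (adjusted p = 0.00299) in GSI.

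Il3ra passed downward in GSI (-0.38 ± 0.133, adjusted p = 0.0381) and not in DMSO (-0.42 ± 0.214, adjusted p = 0.146). The GSI call held in 4 of 11 fits that left out an array, and the highest adjusted p, 0.126, came without the 10 h GSI culture of pair 1. It was also lost with each array centred on its median (-0.34, adjusted p = 0.0563), while as deposited the DMSO value passed too (-1.10, adjusted p = 0.000570). The difference between the arms was not tested. The other 4 calls held in 11 of 11 such fits in both arms.

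Flt3, Csf3r, Csf1r and Il6ra did not pass with time in either arm. For Flt3 and Csf3r the gap between the arms in part repeats the differences for which they were chosen, and it was not tested. Flt3 differed by -0.09 ± 0.417 (SE, adjusted p = 0.890) in DMSO and by 0.82 ± 0.432 (adjusted p = 0.155) in GSI. Csf3r differed by -0.25 ± 0.543 and 0.52 ± 0.529, Csf1r by -0.27 ± 0.403 and -0.84 ± 0.457, and Il6ra by -0.12 ± 0.385 and -0.30 ± 0.375. These 4 genes had the widest spread between the 4 h cultures, and their standard errors are the largest of the 10. As deposited, Csf1r (-1.52, adjusted p = 0.00887) and Il6ra (-0.97, adjusted p = 0.0341) passed downward in GSI.

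**Figure D4:**
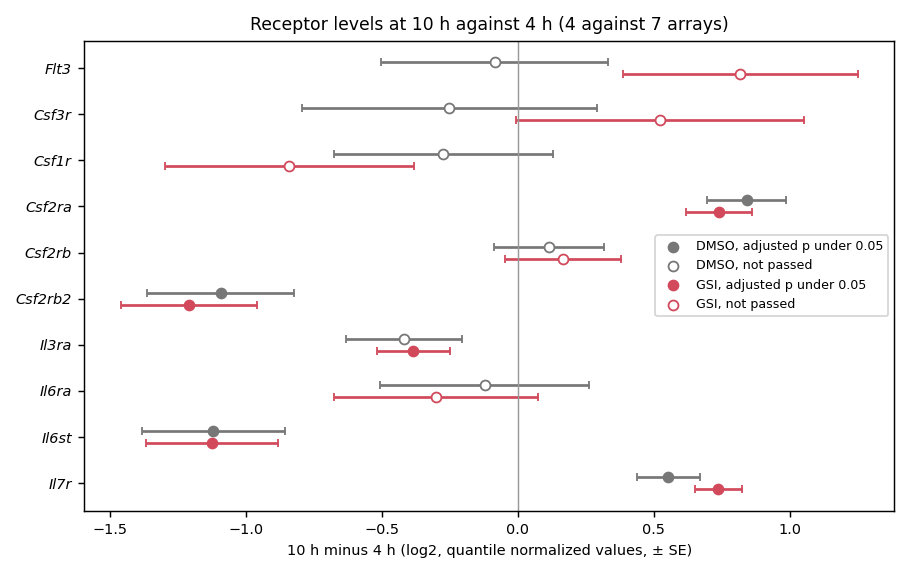
Difference in log2 level between 10 h and 4 h for each receptor, with its standard error, in DMSO (grey, 4 against 7 arrays) and in GSI (red, 4 against 7 arrays), on values quantile normalized over all arrays. Filled points had an adjusted p under 0.05: Csf2ra and Il7r above 0 and Csf2rb2 and Il6st below 0 in both arms, and Il3ra below 0 in GSI.

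Genes around the receptors also differed between the times, as many genes did. The counts below stand beside those of all genes, of which 18.8% rose and 15.3% fell in DMSO. In GSI 20.9% of all genes rose and 16.1% fell. Of the 27 other receptors, 2 rose and 5 fell in DMSO, and the same 7 passed in GSI with 5 more: 4 rose and 8 fell there. In DMSO Lepr (-2.92), Lifr (-2.18), whose product pairs with gp130, Il13ra1 (-1.82), Ifnar1 (-1.23) and Il1r1 (-0.91) fell, while Epor (0.84) and Il1rap (0.53) rose. The 5 that passed in GSI and not in DMSO were Il2ra, Il27ra, Osmr, Ghr and Ifnar2. Of the 17 ligands, 1 rose and 6 fell in both arms: Il3 rose (0.44 in DMSO), and Csf1 (-1.46), Csf2 (-0.55), Il34 (-0.61), Il11 (-0.65), Clcf1 (-0.79) and Kitl (-2.06) fell. Ctf1 passed in GSI as well.

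Of the 21 signalling genes, 1 rose and 7 fell in DMSO, where 18.8% of all genes rose and 15.3% fell. Jak1 (-1.04), Jak2 (-1.11), Stat3 (-0.76), Gab2 (-1.02), Cblb (-1.26) and Sh2b3 (-1.79) fell and Pik3cd (0.86) rose in both arms. Pik3r1 passed in DMSO alone, and Stat5a and Shc1 in GSI alone. Of the 11 feedback genes 4 fell in DMSO and 3 in GSI: Pim3 (-1.51 in DMSO), Socs5 (-0.78) and Socs6 (-0.48) in both, and Cish (-0.99) in DMSO. Of the 20 transcription factor genes 12 passed in each arm, 11 of them in both. Over all genes 34.1% passed in DMSO and 37% in GSI. Ebf1 (-2.46), Irf8 (-2.37), Ets1 (-1.72), Irf4 (-1.26), Fli1 (-1.02), Erg (-0.94), Cebpb (-0.86) and Cebpa (-0.63) fell in DMSO and Gata1 (1.46), Pax5 (0.65) and Cebpe (0.51) rose, each in both arms. Gata2 passed in DMSO alone and Gabpa in GSI alone. On the values as deposited the direction turned for Il1rap (-0.17), Pax5 (-0.01), Cebpe (-0.22) and Gata2 (-0.11) in DMSO, and in GSI for Il1rap, Pax5, Cebpe, Il2ra, Il27ra, Ctf1 and Stat5a. That of Ifnar2 in GSI turned with each array centred on its median (0.08).

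Markers of other cell types moved with time as well. Over all genes 15.3% fell in DMSO and 16.1% in GSI. Of 8 endothelial markers 7 fell in each arm, with a median of -1.97 in DMSO and -2.28 in GSI. Of 8 hepatocyte markers 5 fell in DMSO (median -1.99) and 2 in GSI (median -1.82), and of 9 stromal markers 3 and 7 fell. Of 10 macrophage markers 2 fell in DMSO, and 5 fell and 1 rose in GSI, where 20.9% of all genes rose. Of 13 neutrophil and monocyte markers 0 passed in either arm. The part of any of these cells in the receptor differences with time was not tested. Gate genes moved too: in DMSO Slamf1 rose by 1.32 and Cd48 by 1.97, and Procr fell by 1.66 on the log2 scale, each with a call.

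The 4 h cultures differed widely in endothelial marker level, and the cultures at its ends stood at the ends of several receptors. The mean of the 8 endothelial markers was 7.84, 8.81, 9.03, 9.55, 9.83, 10.6 and 9.77 in DMSO cultures 1 to 7. Culture 6, with the highest value, had the lowest Flt3 (3.79), Csf3r (5.35), Il6ra (5.91) and Csf2ra (5.97) and the highest Csf2rb2 (9.12) and Il6st (10.77). Culture 1, with the lowest value, had the highest Csf3r (8.80), Il6ra (8.01), Il3ra (8.19) and Csf2ra (6.69), while its Flt3 (5.64) was the median. The lowest Csf2rb2 (7.72) and Il6st (9.18) were those of culture 3 and not of culture 1. For Csf1r, Csf2rb, Il3ra and Il7r culture 6 stood at neither end. The GSI culture of pair 6 likewise had the lowest Flt3 (4.14), Csf3r (5.14) and Il6ra (5.88) and the highest Csf2rb2 (9.39) and Il6st (10.82). None of the 8 endothelial markers lay below the median gene on all 22 arrays, and their summed signal at 4 h ran from 10.96 to 13.9 in DMSO and from 11.2 to 13.9 with GSI. Between the partners of a 4 h pair the list differed by only -0.197 to 0.345, and its part in the receptor levels was not tested.

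**Figure D5:**
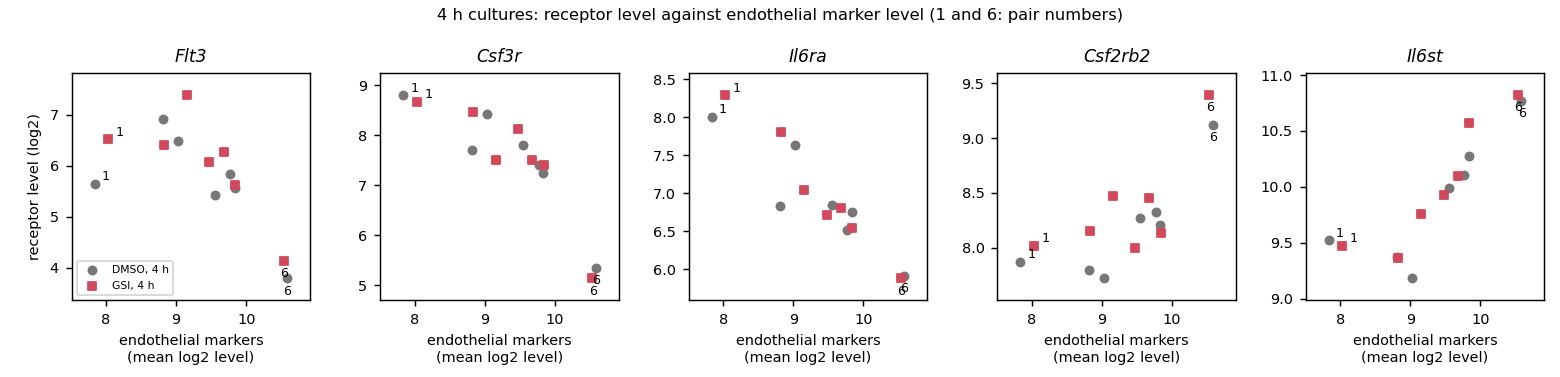
Level (log2) of 5 receptors against the mean log2 level of 8 endothelial markers in the 14 cultures of 4 h, DMSO as grey circles and GSI as red squares, with pairs 1 and 6 numbered. Pair 6 has the highest endothelial value, with the lowest Flt3, Csf3r and Il6ra and the highest Csf2rb2 and Il6st.

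At 10 h the mean of the endothelial markers differed between partners by 0.322, -0.449, -0.257 and -0.051 in pairs 1 to 4. None of the 8 passed, although 5 had an unadjusted p under 0.05 (14.1% of all genes). With GSI 4 were lower and 4 higher, from Lyve1 (-0.73, adjusted p = 0.0559 in limma) to Tie1 (0.39, adjusted p = 0.149). Stromal markers differed by 0.137, -0.436, -0.745 and -0.468, and 1 of 9, Cd248, was called lower (-1.33 ± 0.270, adjusted p = 0.0391), a call lost without pair 1, 3 or 4 (adjusted p from 0.0890 to 0.151). The part of these cells in the receptor differences was not tested. Means by pair were smaller for the dendritic list (from -0.147 to 0.151), another cell type that carries Flt3, and none of its 7 markers passed (1 with an unadjusted p under 0.05). Of these 7 markers 4 lay below the array's median gene on all 22 arrays, so a change in them could be missed. Cd74 and Clec9a of that list were not measured. None of 7 B cell and 6 T cell markers passed at 10 h, and none of them had an unadjusted p under 0.05. Of the 7 mast cell and basophil, 4 erythroid, 5 megakaryocyte and 8 hepatocyte markers none passed, with unadjusted p under 0.05 for 1, 1, 2 and 0. In the B cell, T cell and mast cell and basophil lists 3 markers each lay below the array's median gene on all 22 arrays.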

How the data were processed

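Per the labels, total RNA of sorted SLAM LSK cells was hybridised as biotin-labelled DNA to 1 array per sample (22 arrays). For 41345 probes the authors deposited log2 expression values; the submitters' processing notes name Partek 6.6 and RMA. Whether both times were normalized together is not given in the sources used here. Values ran from 1.83 to 13.9. No detection calls were used. Precision is limited by the number of arrays.

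In the platform annotation 23521 probes had 1 gene symbol, 1814 several and 16010 none listed. Only those with 1 were used, and for the 1082 genes with several such probes the one with the highest mean, which left 22180 genes. Differences were fitted with limma 3.58.1 in R 4.3.3 (lmFit, eBayes with an intensity trend, 2-sided, Benjamini-Hochberg adjusted p under 0.05 over all 22180 genes), tested beforehand on simulated data. For 10 h against 4 h the simulated arrays had only the spread within pairs. They lacked the spread between cultures, so they do not show how that fit behaves on these data. The fit of GSI against DMSO used all 22 arrays with the pair as a block. The fits of 10 h against 4 h used the 11 arrays of each arm after quantile normalization. The pairing comes from the design text. Deviations of partners from their group means correlated at 0.223 to 0.872 at 4 h (6 of 7 arrays best with their own partner) and at 0.213 to 0.449 at 10 h (4 of 4). Numbers shared in the sample descriptions form code sets: pair 1, pairs 2 and 3, and pairs 4 to 7 at 4 h, and pairs 1 and 2, and 3 and 4, at 10 h. What they stand for is not stated. P-values and standard errors for GSI against DMSO rest on how the pair differences vary, pooled over both times and shrunk across genes by eBayes. The block removes the differences in level between pairs. Those for 10 h against 4 h rest on the spread between the cultures of an arm.

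The receptors and all gene lists were chosen with earlier results of these data known. Genes were named by rule: all 10 receptors, each list gene that passed, the 3 of each pathway list with the smallest p at 10 h, and the 5 genes most correlated with Flt3 and with Csf3r. Other names, such as ligands of a receptor, were chosen after their values were seen. Promoter sequences are RefSeq's (GRCm38.p6). Alternatives covered the block, the shared spread, the trend, the scaling, low genes, code sets and leaving out each pair or array.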

Additional observations from a re-analysis of the deposited data

Results flagged for a closer look

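Of 60 sets of receptor values examined (levels per group, and pair differences), 5 held a sample far from the others by Dixon's gap test. That test marks about 1 set in 20 by chance, and the sets share arrays. The Csf3r level of pair 6 in GSI at 4 h was 5.14, against 7.41 for the next lowest culture. The Csf2rb2 level of pair 6 at 4 h was 9.12 in DMSO and 9.39 with GSI, against 8.33 and 8.47 for the next highest. The Il3ra level of pair 1 in DMSO at 4 h was 8.19, against 7.58 for the next. The Csf2rb difference of pair 4 at 4 h was -0.65, against -0.11 for the next lowest pair.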

How the results depend on the processing

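Without the replicate block no gene passed for GSI against DMSO at 4 h (0 against 1 with the block, 360 at an unadjusted p under 0.05) or at 10 h (0 against 148, 1363 at an unadjusted p under 0.05). With the arrays of a single time alone 2 genes passed at 4 h and 2 at 10 h. At 4 h the count ran from 1 to 3 without each pair (3 without pair 6) and was 148 within code set 2. At 10 h it was 91 with no trend, 36 after quantile normalization (27 higher, 9 lower), 64 after cyclic loess (40 higher, 24 lower, against 123 and 25), 285 among genes above the median level, and 27 to 228 when each pair was left out (48 without pair 1, 228 without pair 2, 27 without pair 4). Within code sets it was 0 (1217 at an unadjusted p under 0.05) and 15. For 10 h against 4 h the count was 7565 in DMSO and 8203 in GSI; as deposited it was 13348 (464 higher) and 14895 (470 higher), among genes above the median level 4114 and 4645, and in DMSO 11695 with each array centred on its median. Directions turned for receptors without a call. With each array left out in turn, the DMSO difference ran from -0.3794 to 0.1198 for Flt3, from -0.6134 to 0.0816 for Csf3r, from -0.473 to 0.0098 for Csf1r, from -0.4336 to 0.1307 for Il6ra and from -0.0009 to 0.2444 for Csf2rb. The GSI difference of Csf2rb ran from -0.01 to 0.297. As deposited Csf2rb was -0.5833 in DMSO and -0.484 in GSI, and Csf3r -0.0187 in GSI. Flt3, Csf3r and Csf1r at 10 h kept their direction in the 12 alternatives run. The calls that chose Flt3 and Csf3r were lost without the pair block, with the 10 h arrays alone and within either code set. Each receptor had 1 probe, so no other probe could be tried.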
